A study of Homo sapiens with 6 samples.

Results

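The dual-specificity MAPK phosphatases are a family of 10 genes, taken here by symbol from a table of 58735 genes: DUSP1, DUSP2, DUSP4, DUSP5, DUSP6, DUSP7, DUSP8, DUSP9, DUSP10 and DUSP16. Their transcripts were measured by RNA-seq in Ishikawa cells, a human endometrial adenocarcinoma line, 48 hours after lipofection. The siTCF19 group (3 libraries) received an siRNA against TCF19, and the siNC group (3 libraries) a negative control siRNA, with the same serum-containing medium and lipofection reagent in both. All libraries came from 1 cell line, and the sources used here do not give how many different siRNAs targeted TCF19. The comparison asks which phosphatase transcripts differ when TCF19 is knocked down, and whether those that act on ERK differ from those that act on the stress kinases.

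Mitogen-activated protein kinases are switched on when both the threonine and the tyrosine of their activation loop are phosphorylated. The dual-specificity MAPK phosphatases, or MKPs, remove both phosphates and switch the kinases off. DUSP6, DUSP7 and DUSP9 are cytoplasmic and DUSP5 is nuclear, and all of them prefer ERK. DUSP8, DUSP10 and DUSP16 prefer JNK and p38, the stress kinases. DUSP1, DUSP2 and DUSP4 are inducible nuclear enzymes that act on several MAPKs. Several family members, DUSP6 the best known, are themselves induced by ERK signalling and so form a negative feedback loop. Transcript levels do not report phosphatase activity or kinase phosphorylation.

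Library totals ran from 14680022 to 15529688 counts in siTCF19 and from 14872698 to 16244705 in siNC. TCF19, the targeted gene, had 675, 529 and 606 counts in the siTCF19 libraries, against 2572, 2905 and 2756 in the siNC libraries. Epithelial markers of the line were present: 8 of 10 epithelial and endometrial markers averaged over 1 CPM (counts scaled to a common library size), and the 10 summed to 2971 to 3111 CPM in siTCF19 and 3058 to 3197 CPM in siNC. The 2 below 1 CPM were ESR1 and PGR, the oestrogen and progesterone receptor genes. Single markers moved in both directions: at an edgeR adjusted p under 0.05, 4 of the 10 were higher and 2 lower in siTCF19. Among all tested genes, 20.7% were higher and 20.8% lower. Of 7 stromal markers, 5 averaged below 1 CPM, among them DCN with no count in any library. The 7 summed to 27.0 to 31.4 CPM in siTCF19, against 18.9 to 21.6 CPM in siNC, mostly COL1A1. HAND2 went the other way, with 0.949 to 1.68 CPM in siTCF19 and 1.79 to 2.42 CPM in siNC. At the same threshold, 1 of the 7 was called higher and 0 lower. Of 7 leukocyte and endothelial markers, 5 averaged below 1 CPM, and the 7 summed to 15.1 to 18.5 CPM in siTCF19, against 7.90 to 10.97 CPM in siNC, mostly VWF. Other endothelial markers went the other way at low levels. CDH5 was 0.193 to 0.316 CPM in siTCF19 and 0.825 to 1.22 CPM in siNC. PECAM1 was 0 to 0.190 CPM in siTCF19 and 0.412 to 0.955 CPM in siNC. Of these 7, 1 was called higher and 1 lower. The mitochondrial share of counts was 3.92% to 4.08% in siTCF19, against 3.49% to 3.65% in siNC. The part of these markers and of the mitochondrial share in the results on phosphatases was not tested. In bulk RNA, fewer cells of a kind and less RNA per cell cannot be told apart. The labels call the libraries triplicates without naming separate cultures, so a p-value here reflects just the spread among these libraries, which may be technical.

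DUSP6 fell steeply, DUSP9 fell, and DUSP4, DUSP2 and DUSP8 rose. A gene was called at an edgeR adjusted p under 0.05, and 41.5% of the 17299 tested genes were called, with 20.7% of tested genes higher and 20.8% lower in siTCF19. Of the 10 phosphatases, 9 passed the filter on low counts, 3 were called higher, 2 were called lower and 4 were not called. DUSP10 did not pass the filter. DUSP8 passed it through its siTCF19 libraries, since 3 siTCF19 libraries but 1 siNC library had 10 or more counts, so the count of members called is not read against the background share. The siTCF19 and siNC libraries did not overlap in 6 of the 10 phosphatases, beside 49.2% of all tested genes. Higher genes were 49.9% of all calls, and 61.4% with scaling by library size only, where the median over all genes was 0.06 on the log2 scale, against 0.00 with TMM scaling. The 5 called phosphatases kept their direction and their call under each of the 4 scalings.

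**Figure D1:**
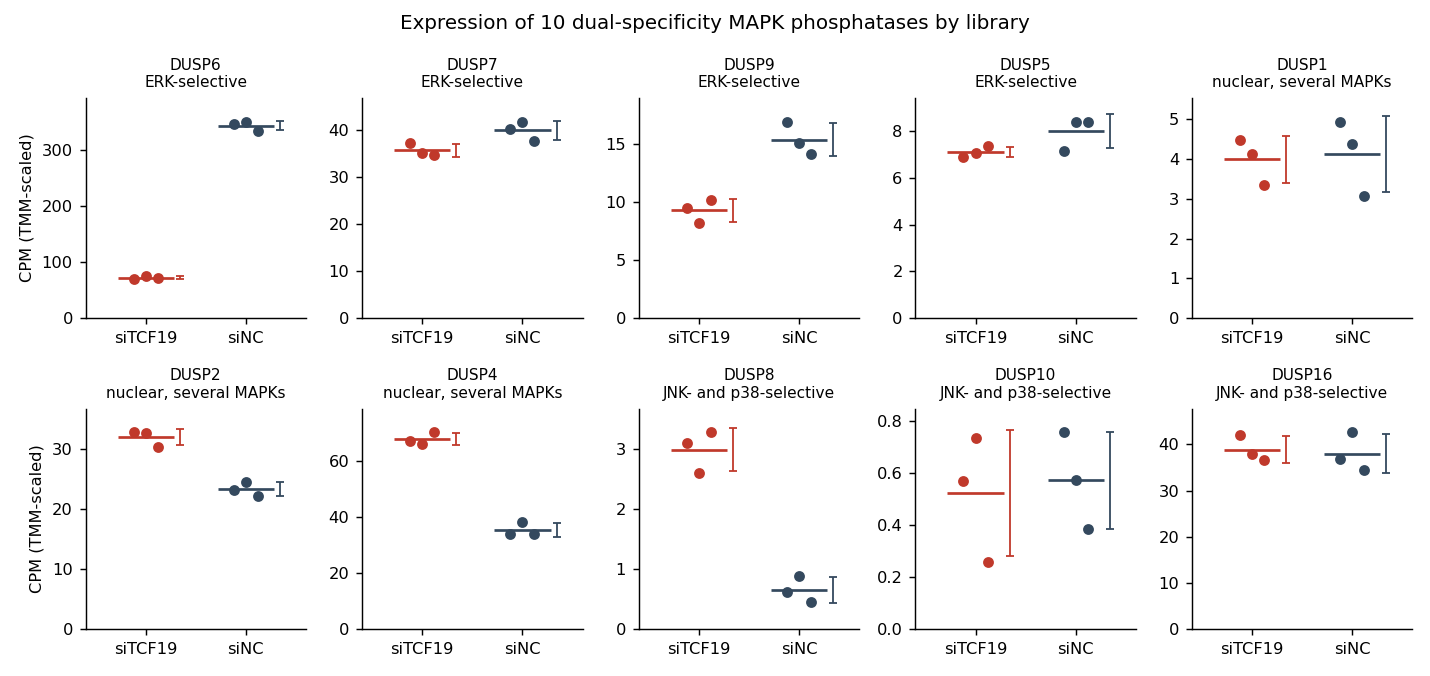
Expression of each phosphatase in CPM with TMM-scaled library sizes (vertical axes, linear and starting at 0, a separate scale per gene), with 3 siTCF19 libraries in red on the left and 3 siNC libraries in dark blue on the right of each panel. Points are libraries, horizontal lines are means and the bars beside them show the mean ± SD; DUSP6 was 69.2 to 74.2 CPM in siTCF19 and 333 to 350 CPM in siNC, while DUSP1, DUSP5, DUSP10 and DUSP16 overlapped between the groups.

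Promoters of 3 members are shown because they represent a fall, a rise and no call: DUSP6, DUSP8 and DUSP1. Each is the RefSeq sequence on GRCh38.p14, 5' to 3' on the gene's own strand, from 250 bases before to 50 bases after the annotated start. Capitals mark matches, on either strand, to an ETS core (CGGAAG), a cAMP response element (CRE, TGACGTCA) or an E-box (CACGTG). AP-1 sites (TGANTCA) and the CArG box of serum response factor were searched as well.
DUSP6 (chr12:89352452-89352751, minus strand): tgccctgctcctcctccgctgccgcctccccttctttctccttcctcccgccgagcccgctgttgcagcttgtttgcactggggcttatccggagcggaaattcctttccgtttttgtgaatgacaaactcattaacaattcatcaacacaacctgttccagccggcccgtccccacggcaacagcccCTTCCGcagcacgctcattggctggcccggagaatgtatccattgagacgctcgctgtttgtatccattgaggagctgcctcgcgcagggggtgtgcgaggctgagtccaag
DUSP8 (chr11:1572222-1572521, minus strand): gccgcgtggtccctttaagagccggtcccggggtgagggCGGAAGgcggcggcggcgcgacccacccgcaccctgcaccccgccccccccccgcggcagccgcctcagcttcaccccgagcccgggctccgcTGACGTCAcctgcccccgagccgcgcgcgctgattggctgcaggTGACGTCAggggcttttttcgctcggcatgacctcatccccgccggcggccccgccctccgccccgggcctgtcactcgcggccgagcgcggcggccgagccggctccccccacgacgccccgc
DUSP1 (chr5:172771146-172771445, minus strand): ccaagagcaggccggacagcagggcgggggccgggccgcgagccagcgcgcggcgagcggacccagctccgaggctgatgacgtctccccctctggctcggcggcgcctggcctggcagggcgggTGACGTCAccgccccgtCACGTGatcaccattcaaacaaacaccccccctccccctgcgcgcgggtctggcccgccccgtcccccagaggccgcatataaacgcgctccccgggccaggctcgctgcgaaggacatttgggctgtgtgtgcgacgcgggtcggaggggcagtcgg

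With the annotated start at position 0, the DUSP6 promoter held 1 ETS core, on the opposite strand, at position -62. The DUSP8 promoter held 2 CRE matches, at -118 and -74, and 1 ETS core at -211, and the DUSP1 promoter 1 CRE match at -125 and 1 E-box at -108. Of 35116 promoters of this length, 19.5% held an ETS core, 1.85% a CRE, 0.0598% more than 1 CRE, 7.26% an E-box, 7.71% an AP-1 match and 1.29% a CArG box. RefSeq promoters were found for 8 of the 10 members, with 55.0% to 78.3% G or C bases (DUSP8 78.3%). The shares over all promoters were not adjusted for base composition, so they may differ among promoters of like composition. Besides these 3 genes, DUSP2 held 1 E-box at -113, and DUSP7, DUSP9, DUSP10 and DUSP16 held no match to the 5 motifs. DUSP1, which was not called, and DUSP8, which rose, both hold the CRE letters. The RefSeq start of DUSP6 lies 770 bases inside the gene model of the deposited table, and that of DUSP8 351 bases upstream of it. A match is a description of letters and not a measured site.

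Among the ERK-selective enzymes, DUSP6, also called MKP-3, a cytoplasmic phosphatase that binds ERK tightly, showed the largest difference. DUSP6 (ENSG00000139318, hg38 chromosome 12, 89347232 to 89353271, minus strand) had 1094, 1111 and 1116 counts in the siTCF19 libraries, against 5027, 5495 and 5187 in the siNC libraries. All siTCF19 libraries lay far below all siNC libraries, and the libraries within a group were close together. The mean was 71.8 ± 2.50 CPM in siTCF19 and 343 ± 8.82 CPM in siNC (SD, n = 3 each). DUSP6 fell 4.77-fold, with a 95% interval of 4.45 to 5.12. On the log2 scale this was -2.26 ± 0.05 (SE; edgeR adjusted p = 1.11e-31). This was rank 1 by p among the 17299 tested genes, while 0.480% of tested genes had a larger change in size. An annotated antisense gene, AC024909.2, overlaps the 5' end of DUSP6. It had 6 to 10 counts in siTCF19 and 19 to 28 in siNC, at most 0.914% of the DUSP6 count of the same library, and a log2 fold change of -1.48 ± 0.40 (SE, edgeR adjusted p = 0.00255). The sources used here do not give the strand setting of the counting, so reads from the 2 strands cannot be told apart.

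DUSP9, also called MKP-4 (ENSG00000130829, chromosome X, 153642492 to 153651326, plus strand), is the X-linked member of the cytoplasmic group. DUSP9 had 150, 123 and 158 counts in the siTCF19 libraries, against 247, 237 and 221 in the siNC libraries. Every siTCF19 library lay below every siNC library, with a smaller gap than for DUSP6. DUSP9 fell 1.65-fold, with a 95% interval of 1.40 to 1.96. On the log2 scale this was -0.73 ± 0.12 (SE; edgeR adjusted p = 3.17e-06), with 8.22 to 10.2 CPM in siTCF19 and 14.2 to 17.0 CPM in siNC.

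DUSP7, also called MKP-X (ENSG00000164086, chromosome 3, 52048919 to 52056550, minus strand), is the third cytoplasmic ERK phosphatase. DUSP7 had 589, 524 and 536 counts in the siTCF19 libraries, against 586, 656 and 588 in the siNC libraries. In CPM the groups did not overlap, with 34.6 to 37.3 in siTCF19 and 37.7 to 41.8 in siNC, but the gap was narrow. DUSP7 was not called, with a log2 fold change of -0.16 ± 0.07 (SE), a 95% interval of -0.31 to -0.02 and an edgeR adjusted p of 0.0684. DUSP5 (ENSG00000138166, chromosome 10, 110497838 to 110511544, plus strand) holds ERK in the nucleus as well as inactivating it. DUSP5 had 109, 106 and 114 counts in the siTCF19 libraries, against 104, 132 and 131 in the siNC libraries. In CPM, 1 siNC library lay within the range of siTCF19, and the log2 fold change of -0.17 (95% interval -0.45 to 0.12, edgeR adjusted p = 0.359) was not called. Among the 4 ERK-selective phosphatases, 2 fell and 0 rose, beside 20.8% lower and 20.7% higher among all tested genes. Their median log2 fold change was -0.45, against 0.00 over all tested genes. No ERK-selective member rose at an unadjusted p under 0.05 or by DESeq2.

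Among the stress-kinase enzymes, DUSP8 was higher in siTCF19, from a low level. DUSP8 (ENSG00000184545, chromosome 11, 1554044 to 1571920, minus strand), a phosphatase of JNK and p38, had 49, 39 and 51 counts in the siTCF19 libraries, against 9, 14 and 7 in the siNC libraries. All siTCF19 libraries lay above all siNC libraries, and the siNC counts stood not far above a floor of 3 counts, which is 0.190 to 0.206 CPM in these libraries. DUSP8 rose 4.54-fold, with a wide 95% interval of 2.88 to 7.17. On the log2 scale this was 2.18 ± 0.33 (SE; edgeR adjusted p = 4.55e-07). With 1 added to the FPKM before taking log2, a scale that shrinks differences of weakly expressed genes, it was 0.53. DUSP8 also has 3 annotated processed pseudogenes on chromosome 10, of which DUSP8P5 (73731824 to 73733638) took more counts than DUSP8 itself and lies inside another pseudogene, GLUD1P3. DUSP8P5 had 93, 68 and 69 counts in the siTCF19 libraries, against 53, 59 and 40 in the siNC libraries, a log2 fold change of 0.58 ± 0.20 (SE, edgeR adjusted p = 0.0158). The likeness of these copies to DUSP8 was not measured here, and how multiply matching reads were treated is not given. Reads of near-identical copies can be assigned to either or left uncounted, so the level of DUSP8 is uncertain. With the counts of DUSP8 and its 3 pseudogenes summed, an alternative chosen after seeing the data, there were 143, 111 and 126 counts in siTCF19, against 64, 79 and 49 in siNC, a log2 fold change of 0.97 ± 0.17 (SE, edgeR adjusted p = 7.66e-06).

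DUSP16, also called MKP-7 (ENSG00000111266, chromosome 12, 12474210 to 12562383, minus strand), is the stress-kinase phosphatase with the highest level here. DUSP16 had 665, 569 and 567 counts in the siTCF19 libraries, against 537, 670 and 536 in the siNC libraries. The groups overlapped, and the log2 fold change of 0.034 (95% interval -0.13 to 0.19, edgeR adjusted p = 0.770) was not called. DUSP10, also called MKP-5 (ENSG00000143507, chromosome 1, 221701424 to 221742176, minus strand), had 9, 11 and 4 counts in the siTCF19 libraries, against 11, 9 and 6 in the siNC libraries. In a fit with no filter its log2 fold change was -0.13, with a 95% interval of -1.19 to 0.92 (edgeR adjusted p = 0.910), and a difference within that interval was not detectable at this depth. The 3 stress-kinase phosphatases therefore gave 1 rise, 1 member not called and 1 member not tested, and their median is not read as a result because DUSP8 passed the filter through the libraries in which it was high.

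Of the nuclear enzymes with several substrates, DUSP4 and DUSP2 rose and DUSP1 was not called. DUSP4, also called MKP-2 (ENSG00000120875, chromosome 8, 29333064 to 29350668, minus strand), is induced by growth factors and inactivates ERK and JNK. DUSP4 had 1061, 991 and 1092 counts in the siTCF19 libraries, against 492, 600 and 527 in the siNC libraries. The lowest siTCF19 library was well above the highest siNC library. DUSP4 rose 1.92-fold, with a 95% interval of 1.75 to 2.12. On the log2 scale this was 0.94 ± 0.07 (SE; edgeR adjusted p = 3.07e-15), with means of 67.9 ± 2.21 CPM in siTCF19 and 35.3 ± 2.53 CPM in siNC (SD, n = 3 each).

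DUSP2, also called PAC-1 (ENSG00000158050, chromosome 2, 96143166 to 96145440, minus strand), is best known from activated lymphocytes. DUSP2 had 518, 490 and 471 counts in the siTCF19 libraries, against 337, 385 and 346 in the siNC libraries. The groups were separate. DUSP2 rose 1.37-fold, with a 95% interval of 1.22 to 1.54. On the log2 scale this was 0.46 ± 0.08 (SE; edgeR adjusted p = 1.48e-05). DUSP1, also called MKP-1 (ENSG00000120129, chromosome 5, 172768090 to 172771195, minus strand), is an immediate early gene induced by stress and mitogens. DUSP1 had 71, 62 and 52 counts in the siTCF19 libraries, against 72, 69 and 48 in the siNC libraries. The ranges lay on top of each other, and the log2 fold change of -0.047 (95% interval -0.45 to 0.36, edgeR adjusted p = 0.877) was not called.

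**Figure D2:**
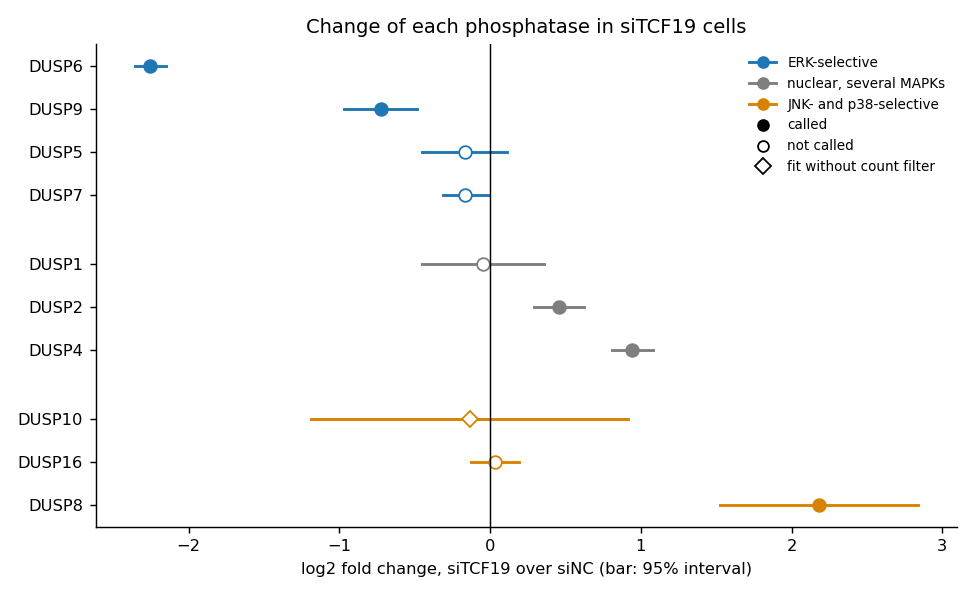
Log2 fold change of each phosphatase, siTCF19 over siNC (horizontal axis), from edgeR with 95% intervals as bars, grouped by substrate preference. Filled circles were called and open circles were not; the diamond for DUSP10 comes from the fit with no filter, and the intervals of DUSP6 (-2.36 to -2.15) and DUSP9 (-0.97 to -0.48) do not meet.

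The ERK-selective class lost level in siTCF19 mainly through DUSP6. On the FPKM scale, which divides by gene length and allows genes to be compared, the ERK-selective phosphatases summed to 27.5, 27.5 and 27.9 FPKM in the siTCF19 libraries, against 89.9, 90.9 and 85.8 FPKM in the siNC libraries. Without DUSP6 the same sum was 12.3 ± 0.49 FPKM in siTCF19 and 15.5 ± 0.62 FPKM in siNC (SD, n = 3 each). The stress-kinase phosphatases summed to 8.18, 7.35 and 7.12 FPKM in the siTCF19 libraries, against 6.79, 7.78 and 6.16 FPKM in the siNC libraries. The first sum separated the groups by a wide margin and the second overlapped. The ratio of the ERK-selective to the stress-kinase sum was 3.36, 3.74 and 3.91 in the siTCF19 libraries, against 13.2, 11.7 and 13.9 in the siNC libraries. This ratio rests largely on 1 gene of each class. DUSP16 made up 6.73 of the mean stress-kinase sum of 7.55 FPKM in siTCF19, and 6.58 of 6.91 FPKM in siNC. DUSP6 alone over DUSP16 alone was 2.29 ± 0.23 in siTCF19, against 11.2 ± 0.96 in siNC (SD, n = 3 each). The nuclear group with several substrates went the other way, with 27.6 ± 0.74 FPKM in siTCF19 and 18.8 ± 1.27 FPKM in siNC (SD, n = 3 each). These sums are given as a description, with no test.

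All 10 phosphatases together summed to 62.8 ± 1.06 FPKM in siTCF19 and 115 ± 4.73 FPKM in siNC (SD, n = 3 each). DUSP6 made up 23.3% to 25.2% of that sum in siTCF19, against 63.2% to 64.9% in siNC. DUSP2 made up 25.2% to 26.7% in siTCF19, against 10.3% to 10.6% in siNC, and DUSP4 14.4% to 15.5% in siTCF19, against 3.999% to 4.40% in siNC. The other 9 genes without DUSP6 summed to 47.4 ± 1.43 FPKM in siTCF19 and 41.2 ± 2.65 FPKM in siNC. The level of DUSP6 was 1.601 to 1.76 times that of DUSP4 in siTCF19, against 14.3 to 16.0 times in siNC.

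**Figure D3:**
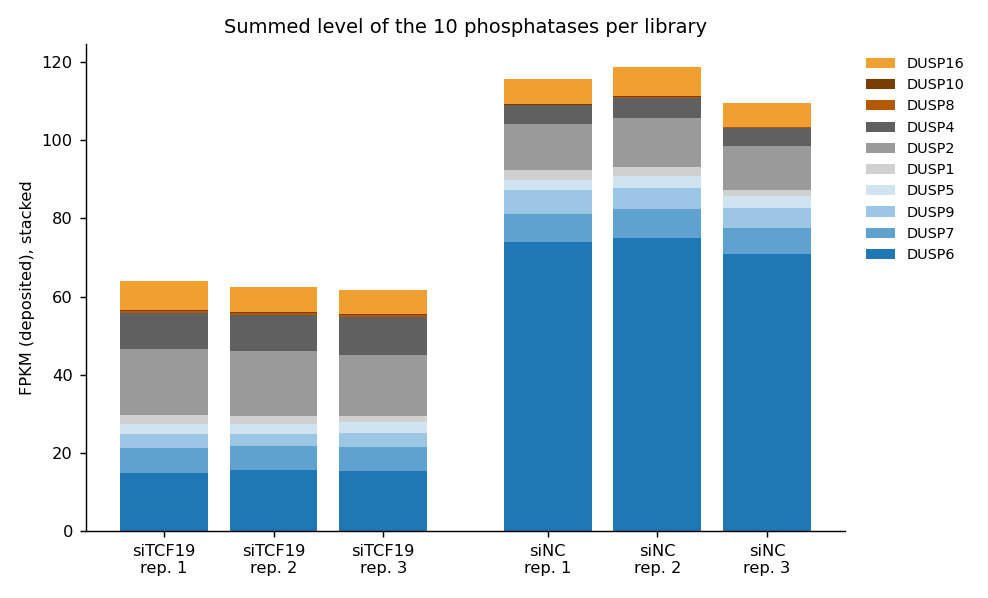
Deposited FPKM of the 10 phosphatases stacked per library (vertical axis, linear from 0), with the siTCF19 libraries on the left and the siNC libraries on the right; blue shades are ERK-selective, grey shades nuclear with several substrates and orange to brown shades JNK- and p38-selective. The stacks reach 61.8 to 63.9 FPKM in siTCF19 and 109 to 119 FPKM in siNC, the DUSP6 block is smaller in siTCF19, and the other 9 genes together are 47.4 FPKM in siTCF19 and 41.2 FPKM in siNC.

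The order of the levels also differed between the groups. In siTCF19, DUSP2 had 16.4 ± 0.71 FPKM and DUSP6 15.4 ± 0.47 FPKM, and their ranges overlapped, so they did not differ beyond their spread. DUSP4 followed with 9.27 ± 0.31 FPKM, then DUSP16 with 6.73 ± 0.52 and DUSP7 with 6.25 ± 0.28 FPKM, which overlapped. Below them came DUSP9 (3.32 FPKM), DUSP5 (2.69 FPKM), DUSP1 (1.96 FPKM), DUSP8 (0.644 FPKM) and DUSP10 (0.177 FPKM), each separate from its neighbour. In siNC, DUSP6 stood alone at 73.3 ± 2.10 FPKM, followed by DUSP2 at 11.9 ± 0.62 FPKM. DUSP7 (7.01 FPKM), DUSP16 (6.58 FPKM), DUSP9 (5.504 FPKM) and DUSP4 (4.82 FPKM) each overlapped with the next. DUSP5 (3.03 FPKM) and DUSP1 (2.03 FPKM) were separate, and DUSP10 (0.194 FPKM) and DUSP8 (0.140 FPKM) overlapped at the bottom (SD and means over n = 3 each).

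The words TGGTCAA and GGTCAAA were searched in 3' UTRs because earlier results of these data named them. Of the 10 phosphatases, DUSP16 carries TGGTCAA and 0 carry GGTCAAA in an annotated 3' UTR (GENCODE release 29), against 14.3% of 13183 tested coding genes that carry either word. The site in DUSP16 (chromosome 12), shown with the word in capitals and 10 bases on each side, is the following.
DUSP16 3' UTR, from base 1904 of 2623: gggaaagtgcTGGTCAAcgatttgagt
Neither called member of the ERK-selective class, DUSP6 or DUSP9, carries either word, and DUSP16, the carrier, was not called. Carriers over all tested coding genes had a median log2 fold change of -0.04, against 0.00 for the others.

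Transcripts known to follow ERK activity were mostly lower, in a list chosen with earlier results of these data known. Of 13 ERK-responsive transcripts besides the phosphatases, 8 fell, 3 rose and 2 were not called, beside 20.8% lower and 20.7% higher among all tested genes. Their median log2 fold change was -0.40, against 0.00 over all tested genes. The immediate early transcription factor gene FOS fell to 5.99 ± 0.51 CPM in siTCF19, against 16.9 ± 1.80 CPM in siNC (SD, n = 3 each), a log2 fold change of -1.50 (edgeR adjusted p = 6.23e-13). PHLDA1, a pleckstrin-homology-like gene induced by growth factors, fell to 7.19 CPM in siTCF19, against 17.0 CPM in siNC, a log2 fold change of -1.24 that was -0.71 on the log2(FPKM + 1) scale. MYC fell by 1.42 on the log2 scale, whereas the G1 cyclin gene CCND1 rose to 976 CPM in siTCF19, against 692 CPM in siNC (log2 fold change 0.50). The fall of the PEA3-group factor genes ETV4 (-0.22) and ETV5 (-0.42), chosen after their values were seen, was smaller than that of DUSP6 in log2 size. Also chosen after their values were seen, FOSL1 rose by a log2 fold change of 0.74 (edgeR adjusted p = 0.00284) and EGR1 was not called (-0.04). EGR1 was low, at 1.99 CPM in siTCF19 and 2.04 CPM in siNC. The rise of EPHA4 (0.93), likewise chosen, was kept in 10 of 16 alternative fits.

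The other ERK feedback genes were mixed, with a median log2 fold change of -0.09. Of 9, the test called 4 lower and 2 higher and left 3 uncalled, beside 20.8% lower and 20.7% higher among all tested genes. Of the genes for Sprouty proteins, which dampen receptor tyrosine kinase signalling, SPRY2 fell by 1.65, SPRY4 fell by 0.996 and SPRY1 fell by 0.80 on the log2 scale. ERRFI1, an inhibitor of the EGF receptor, rose by a log2 fold change of 0.41 (edgeR adjusted p = 1.27e-06). IL17RD, an inhibitor of FGF signalling chosen after its value was seen, fell by 0.90 on the log2 scale.

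Of 14 stress-responsive and AP-1 transcripts, 6 rose, 2 fell and 6 were not called, with a median log2 fold change of 0.17, beside 20.7% higher and 20.8% lower among all tested genes. Of the 2 falls, that of FOSB, named after its value was seen, was kept in 7 of 16 alternative fits. It was lost by DESeq2, in the limma fits, with no filter and with scaling by library size only. Leaving out siTCF19 replicate 1 or 2, or siNC replicate 1 or 2, also lost it. JUND, an AP-1 subunit, rose to 60.6 CPM in siTCF19, against 36.5 CPM in siNC, a log2 fold change of 0.73 (edgeR adjusted p = 2.31e-11). ATF3, a stress-induced factor, rose by a log2 fold change of 0.86 and GADD45A, a growth arrest and DNA damage gene that activates a kinase upstream of JNK and p38, by 0.59. ATF3 was 0.48 on the log2(FPKM + 1) scale. ELK3, a ternary complex factor, fell by 0.49 on the log2 scale.

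The cascade that activates ERK moved in both directions by small amounts. Of 18 RAS-RAF-MEK-ERK cascade genes, 8 rose, 3 fell and 7 were not called, beside 20.7% higher and 20.8% lower among all tested genes. The median log2 fold change of the 18 was 0.12 and the largest size 0.45. DESeq2 called 6 higher and 3 lower, and without siNC replicate 2 edgeR called 5 higher. PTPN11, the SHP2 phosphatase that promotes RAS activation, fell by 0.45 on the log2 scale, the adaptor gene SHC1 fell by 0.27, and MAPK3, which encodes ERK1, rose by a log2 fold change of 0.33, as did ARAF by 0.31.

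Of 27 tested JNK and p38 cascade genes, 9 rose, 5 fell and 13 were not called, with a median log2 fold change of 0.08. Among all tested genes, 20.7% were higher and 20.8% lower. DESeq2 called 5 of the cascade genes higher and 3 lower. Without siTCF19 replicate 1, or without siNC replicate 2 or 3, edgeR called 5 or 6 higher, and without siNC replicate 2 it called 3 lower. The one change of at least 2-fold was in MAP2K6, a kinase that activates p38. MAP2K6 fell to 27.6 ± 0.76 CPM in siTCF19, against 64.1 ± 1.56 CPM in siNC (SD, n = 3 each), a log2 fold change of -1.21 ± 0.07 (SE, edgeR adjusted p = 2.04e-18). MAP2K3, another activator of p38, fell by 0.40 on the log2 scale. The JNK scaffold gene MAPK8IP1 rose by a log2 fold change of 0.42 and MAP3K13 by 0.32. MAPK8, which encodes JNK1 and was chosen after its values were seen, was not called (log2 fold change 0.022, edgeR adjusted p = 0.820).

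Of 10 kinases activated by MAPKs, 2 rose, 1 fell and 7 were not called, beside 20.7% higher and 20.8% lower among all tested genes. The median log2 fold change of the 10 was 0.07. MKNK2, a kinase of the translation factor eIF4E, fell by 0.36 on the log2 scale, while RPS6KA4, the MSK2 kinase gene, rose by 0.21 and MAPKAPK3, a kinase activated by p38, by 0.19.

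Of 19 genes listed as atypical dual-specificity phosphatases, most of which lack the MAPK-binding domain of the MKPs, 15 were tested. Among these 15, 6 rose, 1 fell and 8 were not called, beside 20.7% higher and 20.8% lower among all tested genes. The median log2 fold change of the 15 was 0.21. The rises were 7 with no filter, 5 by DESeq2 and 4 without siNC replicate 1. Without siTCF19 replicate 1 or siNC replicate 3 they were 5. STYXL1, an inactive relative of the phosphatases, rose to 13.2 CPM in siTCF19, against 7.44 CPM in siNC (log2 fold change 0.83, edgeR adjusted p = 4.80e-07). DUSP3, or VHR, a small phosphatase of ERK and JNK, rose by a log2 fold change of 0.28, and STYX by 0.28. DUSP13 rose to 1.89 ± 0.61 CPM in siTCF19, against 0.568 ± 0.06 CPM in siNC (SD, n = 3 each), a log2 fold change of 1.73 that was 0.53 on the log2(FPKM + 1) scale. Like DUSP8, it passed the filter through its siTCF19 libraries, and it is included in the count and median of the atypical group. That count is therefore not read against the background share. The one fall was in EPM2A (log2 fold change -0.55), the laforin gene, named after its value was seen. EPM2A was not called by DESeq2, on the log2(FPKM + 1) scale, or without siTCF19 replicate 3 (log2 fold change -0.36, edgeR adjusted p = 0.105), and without siNC replicate 2 the atypical group had 2 falls. Of 10 tested phosphatases of other families, 1 rose, 1 fell and 8 were not called, with a median log2 fold change of -0.06. The shares over all tested genes were 20.7% higher and 20.8% lower. In this list the rises were 2 with no filter, by DESeq2 and with any 1 library left out. The added rise was not among the 10 genes, so it came from a listed gene that did not pass the main filter. The falls were 2 without siTCF19 replicate 1 and 3 without siTCF19 replicate 2. PPP2R1A, the scaffold of protein phosphatase 2A, fell by 0.43 on the log2 scale, and its catalytic subunit gene PPP2CB rose by a log2 fold change of 0.27.

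**Figure D4:**
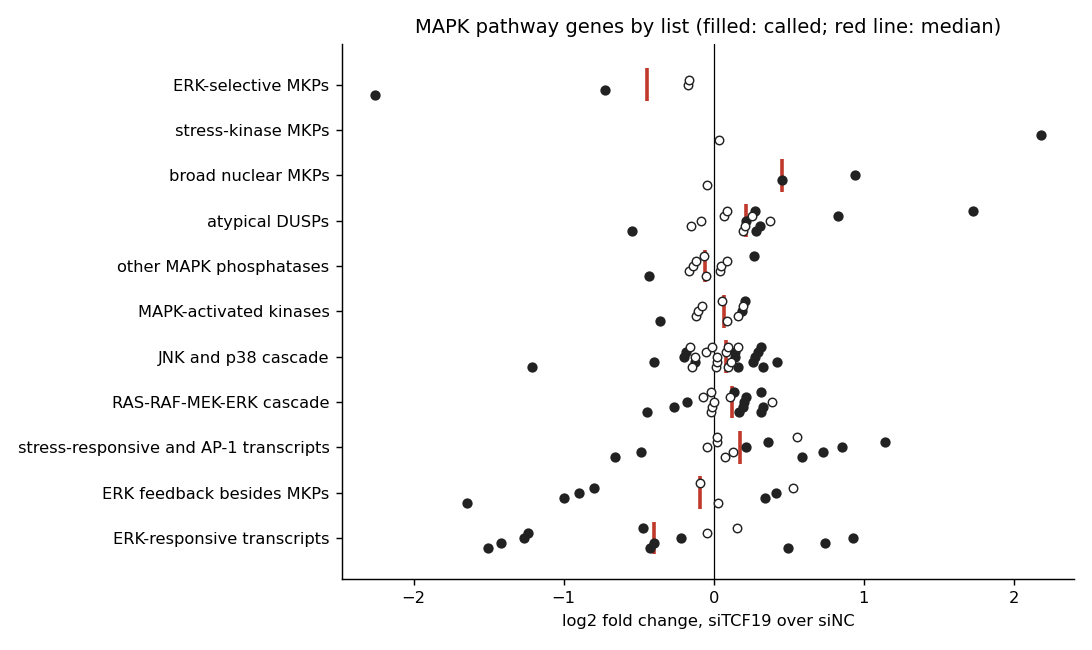
Log2 fold change, siTCF19 over siNC (horizontal axis), of each tested gene in the 3 phosphatase classes and 8 MAPK pathway lists (rows). Filled points were called by edgeR, open points were not, and red lines are list medians (none for the stress-kinase MKPs); DUSP6 at -2.26 lies below all pathway genes plotted, and DUSP8 at 2.18 lies above them on this scale, but was 0.97 with its pseudogenes summed and 0.53 on the log2(FPKM + 1) scale.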

How the data were processed

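The authors deposited 1 table that gives whole-number read counts and FPKM values per library, per the file headers. Per the submitters' processing notes, the tools were HISAT2 2.0.5 and featureCounts 1.5.0-p3 on hg38; the sources used here do not give the strand setting or how multiply matching reads were treated. The table also holds the authors' normalized mean signal per group, log2 fold changes and p-values, per the file headers, which were not used here.

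Columns were matched to libraries by name. Counts were filtered with filterByExpr (minimum count 10), which kept 17299 of 58735 genes with at least 99.7% of each library's counts, scaled by TMM and tested with edgeR 4.0.16 (glmQLFit, glmQLFTest; R 4.3.3). The model held the group alone, with Benjamini-Hochberg adjustment over all tested genes. Errors of log2 fold changes are the fold change divided by the square root of the F statistic, and intervals are 95%. CPM uses TMM-scaled library sizes. Intervals and floors cover counting and replicate error only, since PCR copies cannot be recognised. All libraries were kept as separate, since within-group pairs differed by more than counting error (chi-square over its degrees of freedom 2.27 to 3.76). The steps were tested on simulated data.

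The classes follow known substrate preference. The members, the 8 pathway lists (125 genes) and the sequence words were chosen with earlier results of these data known. Named were TCF19, all members, and up to 4 called genes of each list by lowest p; other genes are said to be chosen after their values were seen. Alternatives were 3 other scalings (RLE, upper-quartile, library size only), no filter or a filter at 1 CPM in 3 libraries, DESeq2 1.42.0, limma 3.58.1 (voom, and trend on log2(FPKM + 1)), a replicate block, coding genes alone, a threshold of 0.01, and leaving out each library. Promoters were read from RefSeq and 3' UTRs of at least 50 bases from GENCODE release 29. A comparison of the protein sequences was planned and was not run, because no protein sequences were used here.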

Additional observations from a re-analysis of the deposited data

How the results depend on the processing

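The 3 phosphatases called higher (DUSP2, DUSP4, DUSP8) and the 2 called lower (DUSP6, DUSP9) kept their call and direction under every alternative run, including 3 higher and 2 lower with each library left out in turn. The log2 fold change ranged from -2.27 to -2.18 for DUSP6, from -0.79 to -0.59 for DUSP9, from 0.82 to 1.007 for DUSP4, from 0.42 to 0.52 for DUSP2 and from 0.53 to 2.48 for DUSP8, whose lowest value is on the log2(FPKM + 1) scale. DUSP1, DUSP5, DUSP7 and DUSP16 were called under none of them, with a lowest adjusted p of 0.0558 (DUSP7, without siNC replicate 3). With the replicate number as a block, 3 phosphatases were higher and 2 lower, and 3433 genes in all were higher and 3441 lower. Same-numbered libraries did not deviate together (correlations of -0.02 to 0.02 over 3 pairs). No label ties them, and 3 pairs cannot show whether they share more than a number. The median of the ERK-selective class was -0.37 on the log2(FPKM + 1) scale, and -0.49 to -0.40 with a library left out. The median of the stress-kinase class, which is not read as a result, was 1.11 over DUSP8 and DUSP16. On the log2(FPKM + 1) scale it was 0.28. It was 0.030 with no filter and 0.033 by DESeq2, both of which add DUSP10 by construction. With a library left out it was -0.033 to 1.17. In some of these runs DUSP10 passed the filter and was added too, so that range partly reflects a change of members. The summed level of the ERK-selective class in siTCF19 was 27.9 with TMM-scaled totals, against 27.6 FPKM as deposited. Of 272 counts of calls per pathway list and direction under the alternatives, 37 moved by over 1.5 times, none of them of the ERK-responsive transcripts or the other ERK feedback genes; the JNK and p38 cascade had 5 rises without siTCF19 replicate 1, and the RAS-RAF-MEK-ERK cascade 5 without siNC replicate 2. Depth limits DUSP10 and the siNC level of DUSP8.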
